A study of Mus musculus with 9 samples.

Results

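Isg20, Rtp4, Ifi44, Ifi35, Ifi27l2a, Xaf1, Samd9l and Ddx60 are antiviral interferon-stimulated genes outside the IFIT, Mx, OAS and PARP families, and they were taken here as a set of 8 genes by name. Each was represented by the probe set that carries only its symbol. This gave 7 genes with a value of 19752 genes in all, with a single such probe set each. Ifi44 had no probe set of its own by this rule and was not analysed here.

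Messenger RNA was measured on 9 single-colour expression arrays, each with 1 sample of peritoneal macrophages sorted from male 6-week-old C57BL/6 mice. The mice had been injected under the skin 2 h before they were killed, with 10000 U of recombinant interferon alpha (IFNa, type I, n = 4) or 8000 U of recombinant interferon gamma (IFNg, type II, n = 2). The other samples came from untreated mice (n = 3). No sample from mice injected with vehicle alone was included, so any effect of injection or handling cannot be told apart from that of interferon. Cells were double sorted as F4/80+ ICAM2+ in the labels of the treated samples and as F4/80+ in those of the untreated samples, whereas the design text names both F4/80 and ICAM with no exception. The labels do not say how many mice each sample holds. Titles number the IFNa samples 1 to 4, but the descriptions give replicates 1 and 2 the same number, 1, with replicate 1 under a differently written name. The labels thus do not settle whether all 4 are separate replicates, and p-values measure the spread between these samples, which may be technical in part.

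Type I interferon signals through a receptor pair to a complex that includes STAT2 and IRF9 and binds the interferon-stimulated response element (ISRE) of its target genes. Interferon gamma acts mainly through a different element named GAS, and it induces IRF1, which can bind ISRE-like sequences. Several of the genes described here encode products that act on RNA or limit viruses. Isg20 encodes an exonuclease that degrades single-stranded RNA. Ddx60 encodes a helicase of the DExD/H-box class, and Rtp4 encodes a receptor transporter protein that also restricts RNA viruses. The product of Samd9l limits poxviruses in mouse cells. Xaf1 encodes a partner of the apoptosis inhibitor XIAP, Ifi27l2a a small hydrophobic protein of the ISG12 family, and Ifi35 a leucine zipper protein that binds NMI.

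Promoter windows are shown because ISRE and GAS are the elements through which the 2 interferons are known to act. RefSeq sequences (GRCm38.p6) were at hand for 6 of the 8 genes, each from 250 bases before an annotated start to 50 after it, and the 150 bases from 100 before the start are printed for 5 genes. No sequence was at hand for Rtp4 or Ifi27l2a. Capitals mark every match, on either strand, to the ISRE core GAAANNGAAA, its shorter form GAAANNGAA, the repeat spaced by 1 base GAAANGAAA, or the GAS form TTCNNNGAA. The third motif was added after the sequences had been seen. Every match to the core is also a match to the shorter form, and a GAS match can overlap the others.
Ddx60, chr8:61927987-61928136, + strand: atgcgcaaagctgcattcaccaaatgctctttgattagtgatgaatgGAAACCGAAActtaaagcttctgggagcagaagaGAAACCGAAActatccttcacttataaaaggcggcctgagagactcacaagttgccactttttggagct
Xaf1, chr11:72301529-72301678, + strand: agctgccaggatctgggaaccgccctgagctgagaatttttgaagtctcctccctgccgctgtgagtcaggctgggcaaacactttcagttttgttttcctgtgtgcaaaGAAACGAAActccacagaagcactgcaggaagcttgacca
Isg20, chr7:78913324-78913473, + strand: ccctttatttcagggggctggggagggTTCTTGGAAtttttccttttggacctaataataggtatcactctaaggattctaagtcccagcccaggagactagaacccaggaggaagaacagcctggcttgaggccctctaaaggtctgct
Samd9l, chr6:3399522-3399671, - strand: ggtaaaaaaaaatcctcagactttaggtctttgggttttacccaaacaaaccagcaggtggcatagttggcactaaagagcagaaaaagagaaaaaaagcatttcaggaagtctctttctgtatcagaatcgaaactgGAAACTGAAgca
Ifi35, chr11:101448312-101448461, + strand: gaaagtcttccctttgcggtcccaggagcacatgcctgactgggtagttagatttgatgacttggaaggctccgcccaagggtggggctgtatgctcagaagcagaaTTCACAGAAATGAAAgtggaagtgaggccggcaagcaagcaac

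The window of Ddx60 held 2 matches to the ISRE core, from -53 to -44 and from -19 to -10, counted with 0 at the annotated start. It was the 1 gene of the 6 with that core, which 3.44% of all 32851 promoter windows of 300 bases held. Samd9l held the shorter form downstream of its start, a form found in 8.56% of all windows, and Xaf1 and Ifi35 held the repeat spaced by 1 base, found in 3.17%. The first of 3 annotated starts of Isg20 had a GAS match from -73 to -65, and Ifi35 had one just downstream of its start, a form found in 8.3% of all windows. Counted by gene, as the 6 genes are, the shares over 27025 genes were 3.99% for the core and 9.76% for the shorter form. They were 3.7% for the spaced repeat and 9.55% for the GAS form. Of the antiviral genes of other families described further below, 17 of 28 with a promoter window held the ISRE core, against 1 of the 6 genes here. The shorter form was in 3 of 6 and 18 of 28, the repeat spaced by 1 base in 3 of 6 and 3 of 28, and the GAS form in 2 of 6 and 7 of 28. Both sets of genes were listed with results of these data known, so these counts are a description only. The spaced repeat was chosen after the sequences had been seen. Its count among the 6 genes therefore cannot be compared fairly with its share in other genes. Ifi44, counted among the 6, held the shorter form from -3 to 5 and the spaced repeat from -48 to -40. A match describes these letters and does not show a bound site, and a window without one says nothing about sites elsewhere.

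**Figure D1:**
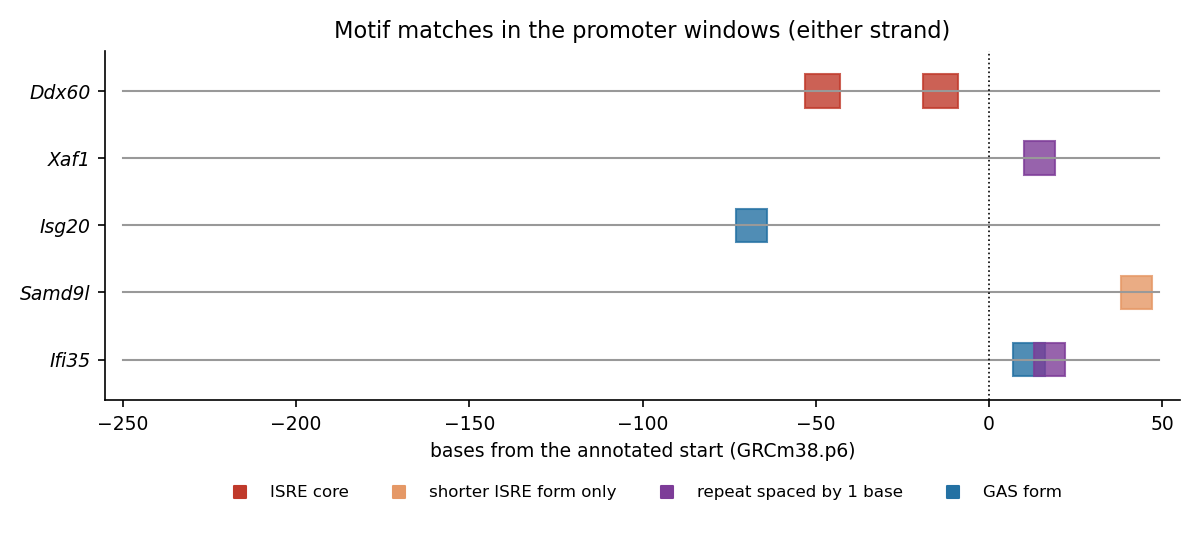
Matches to 4 motifs in the promoter windows of 5 genes. The x axis gives bases from the annotated start (dotted line at 0), each row is 1 gene, and coloured boxes are matches on either strand. Ddx60 is the gene with 2 ISRE core matches, both upstream of the start, whereas the matches of Xaf1, Samd9l and Ifi35 lie downstream of it.

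Intensities are the deposited RMA values on a linear scale, and differences are on the log2 scale. The interquartile range over all genes was narrow on IFNa replicate 4 (log2 2.06) and on untreated replicate 1 (2.18), and 2.60 to 2.96 on the other 7 arrays. Their mean correlations with the remaining arrays, 0.956 and 0.961, were below those of the other 7 (0.976 to 0.982). Counts are therefore also given without both. Of 7 markers of the large peritoneal macrophage 6 had a value, with summed intensities of 29413 to 31415 on IFNa arrays, 31445 to 32170 on IFNg arrays and 31091 to 33619 on untreated arrays. For Adgre1, the F4/80 gene, the log2 difference was 0.04 ± 0.10 (SE) for IFNa and 0.01 ± 0.12 for IFNg, both against untreated. For Icam2 it was -0.24 ± 0.14 for IFNa and 0.05 ± 0.17 for IFNg. Gata6 was the 1 marker of this list that passed an adjusted p under 0.05 (limma) in either comparison. Its log2 difference was -1.05 ± 0.17 for IFNa (adjusted p = 0.00997) and -1.16 ± 0.21 for IFNg (adjusted p = 0.0242).

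The first comparison asked how the 7 genes respond to IFNa. All 7 were called higher, between 2.71-fold for Ifi27l2a and 8.98-fold for Ddx60, and on each of them every IFNa array lay above every untreated array. Over all 19752 genes, 1.79% were called higher and 0.856% lower at an adjusted p under 0.05 (limma, Benjamini-Hochberg adjustment over all genes). The arrays of the groups did not overlap in 3.68% of all genes with IFNa above and in 6.75% with IFNa below. The median log2 difference of the 7 genes was 2.43, against -0.02 over all genes. Without the 2 narrow arrays all 7 were again called higher. In samples of many cells, a change in the share of a cell type and a change in RNA per cell cannot be told apart.

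Ddx60, the helicase gene, had intensities of 1973, 1706, 1883 and 1245 on the 4 IFNa arrays, 361 and 418 on the 2 IFNg arrays and 171, 179 and 213 on the 3 untreated arrays. The 3 groups were separate on this gene, with IFNa far above the rest, and the lowest IFNa value came from replicate 4. After IFNa it rose by log2 3.17 ± 0.17 (SE, adjusted p = 7.51e-06), the 34th largest rise of 19752 genes.

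Isg20, the RNA exonuclease gene, had intensities of 2231, 2117, 2063 and 3640.4 after IFNa, 618 and 643 after IFNg and 289, 531 and 608 without treatment. Its IFNg arrays lay just above the highest untreated array, and IFNa replicate 4 stood above the other 3 IFNa arrays. The rise after IFNa was log2 2.43 ± 0.27 (5.38-fold, adjusted p = 8.63e-04), and without IFNa replicate 4 it was 2.23 (adjusted p = 0.0013). That array also had one of the 2 narrow intensity ranges.

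Rtp4, whose product restricts RNA viruses, had intensities of 4205, 4587, 5103 and 3803 after IFNa, 3055 and 2646 after IFNg and 321, 711 and 1310.4 without treatment. The untreated arrays were spread over 4.09-fold, the widest range of the 7 genes in any group, whereas the IFNa arrays were spread over 1.34-fold. Rtp4 rose by log2 2.72 ± 0.38 after IFNa (6.58-fold, adjusted p = 0.00322), and the standard error was the largest of the 7. Without the 2 narrow arrays the difference was 2.26.

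Samd9l, which limits poxviruses, had intensities of 2651, 1978, 2315 and 2436 after IFNa, 1273 and 1129 after IFNg and 396, 667 and 470.0 without treatment. The groups lay in the order IFNa, IFNg, untreated with no overlap. After IFNa it rose by log2 2.23 ± 0.18 (4.68-fold, adjusted p = 9.13e-05).

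Xaf1, the XIAP partner gene, had intensities of 2021, 1976, 2122 and 1552 after IFNa, 1104 and 1009 after IFNg and 313, 337 and 359 without treatment. The untreated arrays were within 1.15-fold of each other, the closest of the 7 genes, and the groups did not overlap. The rise after IFNa was log2 2.50 ± 0.13 (5.67-fold, adjusted p = 6.29e-06), with the smallest standard error of the 7.

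Ifi27l2a, of the ISG12 family, had intensities of 1168, 1811, 1771 and 1192 after IFNa, 929 and 929 after IFNg and 325, 590 and 805 without treatment. The 2 IFNg values are identical to all deposited digits. Identical values made up 3.8% of all probe sets between these 2 arrays and 0.48% to 6.26% over the 36 pairs of arrays, so their zero spread does not measure precision. The rise after IFNa was the smallest of the 7, log2 1.44 ± 0.29 (2.71-fold, adjusted p = 0.0305). This call ended without IFNa replicate 1, 2 or 3, untreated replicate 2 or either IFNg array (adjusted p = 0.0529 to 0.107) and in a fit of the IFNa and untreated arrays alone (0.0639).

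Ifi35, whose product binds NMI, had intensities of 1306, 1465, 1628 and 2020.3 after IFNa, 1056 and 1011 after IFNg and 386, 431 and 589 without treatment. The groups again lay in the order IFNa, IFNg, untreated with no overlap. The rise after IFNa was log2 1.78 ± 0.18 (3.43-fold, adjusted p = 4.59e-04).

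**Figure D2:**
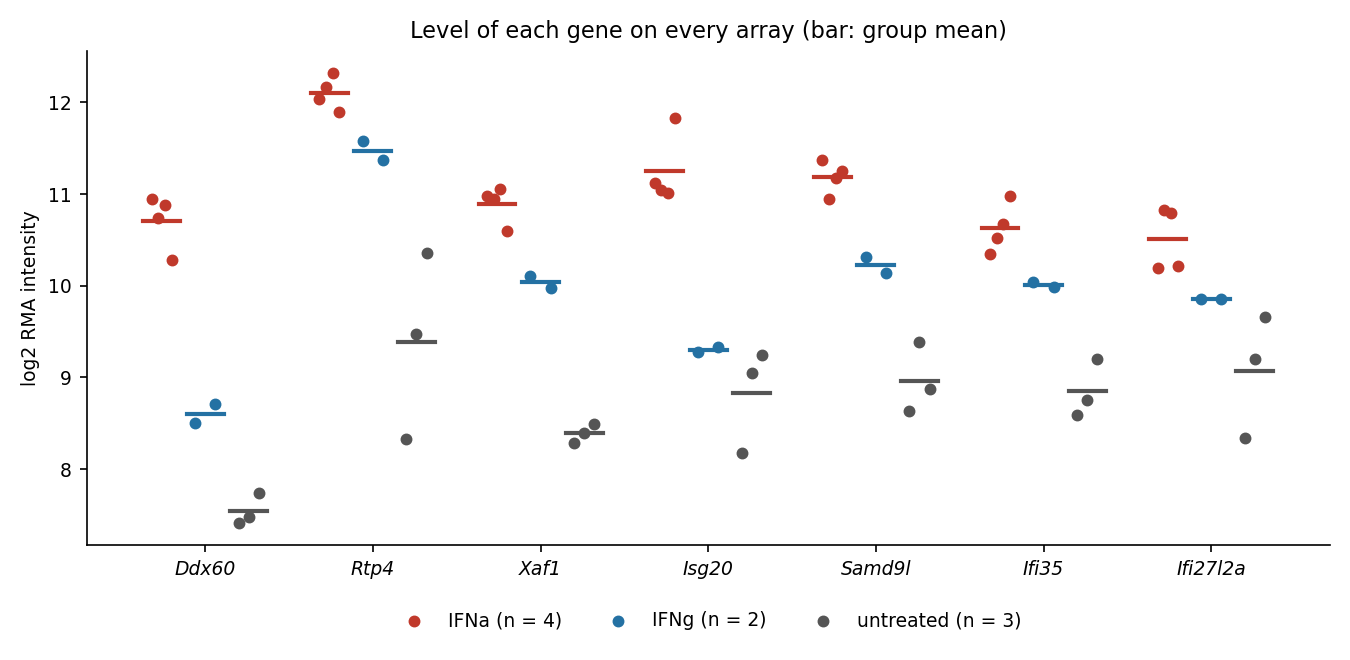
Log2 RMA intensity (y axis) of 7 genes on each of 9 arrays. Points are arrays coloured by group (IFNa, n = 4; IFNg, n = 2; untreated, n = 3), and bars are group means. On all 7 genes the IFNa points lie above the IFNg points and these above the untreated points, with the widest untreated range on Rtp4 and the smallest step between IFNg and untreated on Isg20.

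The second comparison asked how the same genes respond to IFNg. Xaf1, Samd9l, Ifi35 and Ddx60 were called higher, 4 of 7, between 2.08-fold and 3.14-fold, whereas Rtp4, Ifi27l2a and Isg20 did not pass. Over all genes 1.24% were called higher and 0.111% lower. On each of the 7 genes both IFNg arrays lay above every untreated array, which was so for 12.3% of all genes, while 15.5% had both arrays below. The median log2 difference of the 7 was 1.16, against -0.06 over all genes. Without the 2 narrow arrays 5 were called higher, with Rtp4 added.

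Xaf1 rose by log2 1.65 ± 0.16 (3.14-fold, adjusted p = 6.55e-04) and was called without any single array. Samd9l rose by 1.27 ± 0.22 (2.40-fold, adjusted p = 0.0202), a call that ended without either IFNg array or untreated replicate 3 (0.053 to 0.28). It also ended in a fit of the IFNg and untreated arrays alone (0.121) and with a replicate block by description number (0.0579). Ifi35 rose by 1.16 ± 0.22 (2.24-fold, adjusted p = 0.0333) and Ddx60 by 1.06 ± 0.21 (2.08-fold, adjusted p = 0.0388). Both calls ended without IFNa replicate 2 or 3, either IFNg array or untreated replicate 1 or 2, and that of Ddx60 also without IFNa replicate 1 (adjusted p = 0.0642 to 0.343 for Ifi35 and 0.0548 to 0.424 for Ddx60). Under median centring neither Ifi35 nor Ddx60 passed (0.0512 and 0.0587), nor did they in a fit of these 2 groups alone (0.102 and 0.0628). Ddx60 also missed the threshold with a trend in the prior variance (0.0588). The IFNa arrays enter here through the shared estimate of the spread. With 1 IFNg array left, that array is assumed to vary like the other groups.

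Rtp4 differed from untreated by log2 2.09 ± 0.45 after IFNg (95% interval 1.08 to 3.10, adjusted p = 0.0664). This was the largest difference of the 7 on all 9 arrays, but without untreated replicate 1 that of Xaf1 was larger (1.60, against 1.56 for Rtp4). Rtp4 passed without untreated replicate 1 (1.56, adjusted p = 0.037) or untreated replicate 3 (2.57, adjusted p = 0.00768), the lowest and the highest of its untreated arrays. Ifi27l2a differed by 0.79 ± 0.35 (interval 0.01 to 1.57, adjusted p = 0.6). Isg20 differed by 0.47 ± 0.33 (interval -0.26 to 1.21, adjusted p = 0.731), which leaves room for a change of more than 2-fold. Without the 2 narrow arrays the difference was 0.43 for Ifi27l2a (adjusted p = 0.508) and 0.15 for Isg20 (adjusted p = 0.636). Neither Isg20 nor Ifi27l2a passed with any single array left out.

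The third comparison set IFNa directly against IFNg, at 10000 U and 8000 U, doses of different agents that are not matched. All 7 genes were higher on every IFNa array than on either IFNg array, which was so for 12.8% of all genes, while 15.6% were lower on every IFNa array. Ddx60, Isg20 and Xaf1 passed the test, 3 of 7, against 0.44% of all genes called higher and 0.537% called lower after IFNa. The median log2 difference of the 7 genes was 0.85, against 0.03 over all genes. Without the 2 narrow arrays 4 passed, with Samd9l added.

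Ddx60 was higher after IFNa by log2 2.11 ± 0.19 (4.31-fold, adjusted p = 7.81e-04), the 19th largest such difference of 19752 genes, and its call held without any single array. Isg20 was higher by 1.95 ± 0.31 (3.87-fold, adjusted p = 0.0173), the 22nd largest. That call ended without IFNa replicate 1 (0.0523) and without either IFNg array (0.218 and 0.224). Xaf1 was higher by 0.85 ± 0.15 (1.80-fold, adjusted p = 0.0307), a call that ended without IFNa replicate 1, 2 or 3, either IFNg array or untreated replicate 2 (0.0729 to 0.452). It also ended under median centring (0.0517), with a trend in the prior variance (0.0628) and in a fit of these 2 groups alone (0.0718).

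The other 4 genes did not pass in the direct comparison. Samd9l differed by log2 0.96 ± 0.21 (95% interval 0.50 to 1.42, adjusted p = 0.0793), and it passed without untreated replicate 1 (0.0388) or untreated replicate 2 (0.0404), under quantile normalization (0.0451) and in a fit of the 2 groups alone (0.0391). Ifi27l2a differed by 0.65 ± 0.33 (interval -0.09 to 1.38), Rtp4 by 0.63 ± 0.43 (-0.33 to 1.59) and Ifi35 by 0.62 ± 0.21 (0.15 to 1.08), with adjusted p between 0.41 and 0.801. The interval of Ddx60, 1.67 to 2.54, lies above those of these 4 genes. Differences between the genes were not tested.

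**Figure D3:**
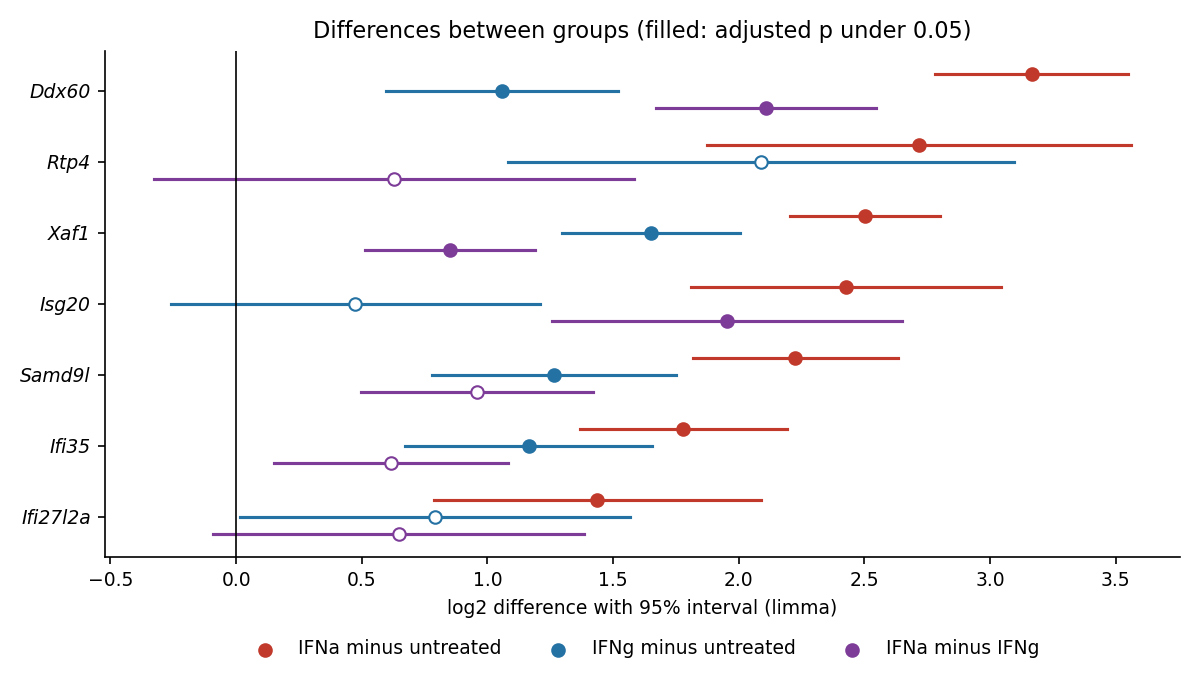
Log2 differences with 95% intervals from limma (x axis) for 7 genes (rows) in 3 comparisons (colours). Filled points passed an adjusted p under 0.05. All 7 IFNa minus untreated points are filled, 4 IFNg minus untreated points are, and in the IFNa minus IFNg comparison Ddx60, Isg20 and Xaf1 are, with Ddx60 and Isg20 farthest from 0.

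The order of the levels was therefore the same for all 7 genes, IFNa, then IFNg, then untreated, but the steps that passed differed. The share of all genes with this order was not counted. Both steps passed for Ddx60 and Xaf1. For Isg20 the step between IFNa and IFNg passed and that between IFNg and untreated did not. For Samd9l and Ifi35 the step between IFNg and untreated passed and that between IFNa and IFNg did not. For Rtp4 and Ifi27l2a neither neighbouring step passed, while IFNa differed from untreated. This grouping depends on the threshold. The calls of Ddx60, Ifi35 and Samd9l after IFNg ended without several of the single arrays, as given above. So did those of Xaf1 and Isg20 in the direct comparison and that of Ifi27l2a after IFNa. Samd9l, which did not pass in the direct comparison, differed there by 0.96, beside 0.85 for Xaf1. The comparisons share arrays, so their values are not separate evidence.

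Arrays within a group did not deviate alike. On untreated replicate 1 all 7 genes lay below their untreated mean, by log2 0.46 on average (deviations from -1.06 to -0.10), and on untreated replicate 3 all but Samd9l lay above it, by 0.36 on average. Untreated replicate 1 is one of the 2 arrays of narrow range. In the IFNa group the mean deviation of the 7 genes was between -0.04 and 0.09 on every array. The genes did not move together on IFNa replicate 4, where Isg20 was 0.58 above its group mean and Ddx60 0.43 below. The 2 IFNg arrays differed from their mean by at most 0.11. Summed intensity of 4 measured B cell markers was 422 to 1781 on IFNa arrays, 456 to 505 on IFNg arrays and 551 to 863 on untreated arrays, with the highest value on IFNa replicate 2. No B cell marker was called in any comparison, and the part of these cells in the levels of the 7 genes was not tested.

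**Figure D4:**
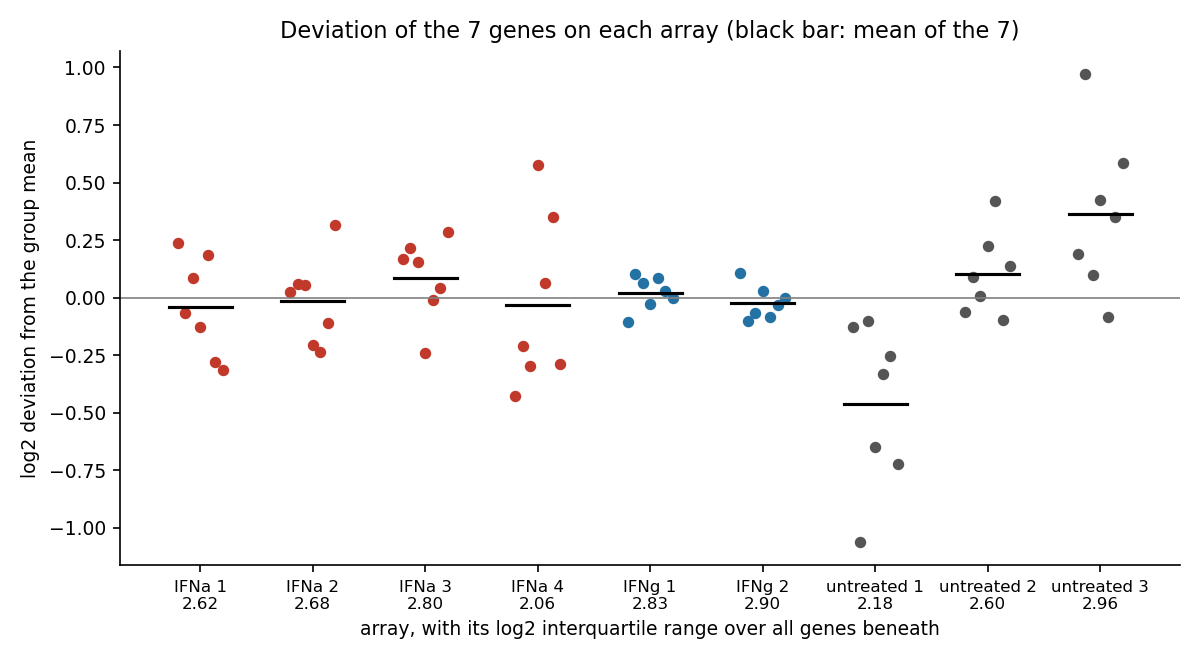
Log2 deviation of 7 genes from their group mean (y axis) on each of 9 arrays (x axis), with the interquartile range of the array over all genes beneath its name. Points are genes and black bars are their mean. All points of untreated replicate 1 lie below 0, and the points of IFNa replicate 4 spread from -0.43 to 0.58.

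Among themselves the 7 genes correlated across the 9 arrays with Pearson's r of 0.83 (Isg20 with Rtp4) to 0.969 (Xaf1 with Samd9l) over 21 pairs. These arrays share the 3 groups, so r mostly repeats the group differences and is a description only. The genes closest to the mean pattern of the 7, each standardised, were Phf11a (r = 0.998), Usp18 (0.997), Slfn9 (0.996), Trim30d (0.996), Phf11d (0.995), Oas3 (0.995), Tor1aip2 (0.994) and Il15 (0.993), of 1227 other genes with an SD of at least 0.5 log2. Usp18 encodes a protease that removes ISG15, and Il15 a cytokine that acts on natural killer cells. Each member had its own nearest genes. Those of Isg20 were Car13 (r = 0.982), a carbonic anhydrase gene, and Slc15a3 (0.981), and those of Ddx60 were Ppm1k (0.996) and Ifi214 (0.994). The differences of Car13 were log2 2.43 for IFNa against untreated and 0.27 for IFNg against untreated, beside 2.43 and 0.47 for Isg20. Rtp4 was closest to Dck (0.991) and Spred1 (0.991), Samd9l to Tlr3 (0.994) and Ifi209 (0.993), and Xaf1 to H2-T24 (0.992) and 4930523C07Rik (0.991). Ifi35 was closest to Trafd1 (0.991) and Daxx (0.989), and Ifi27l2a to Fam111a (0.972) and Plekha2 (0.963).

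Of 17 measured relatives and partners of the 7 genes, 4 were called higher after IFNa and none lower, namely Nmi (log2 1.78 ± 0.23, adjusted p = 0.00223), the partner of Ifi35, and the RNA sensor genes Ddx58 (2.62 ± 0.26), Ifih1 (2.44 ± 0.19) and Dhx58 (2.22 ± 0.21). After IFNg 0 of 17 passed by limma, with 6 at an unadjusted p under 0.05, and 2 passed without the narrow arrays. Nmi differed from untreated by 1.27 ± 0.28 after IFNg (adjusted p = 0.0725), beside 1.16 for Ifi35. In the direct comparison Ddx58 (3.08-fold) and Ifih1 (2.84-fold) were higher after IFNa, a count that was 4 without the narrow arrays and 0 without either IFNg array.

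Several other relatives and partners of the 7 genes did not pass. Isg20l2 and Aen, exonuclease relatives of Isg20, had log2 differences against untreated of -0.23 ± 0.27 and 0.12 ± 0.13 for IFNa, and of 0.23 ± 0.33 and 0.05 ± 0.15 for IFNg. Rtp1, Rtp2 and Rtp3, of the family of Rtp4, differed by 0.16 ± 0.19, -0.17 ± 0.13 and 0.11 ± 0.18 after IFNa. Ifi27 and Ifi27l2b, of the family of Ifi27l2a, differed by 0.03 ± 0.14 and -0.14 ± 0.16 after IFNa and by 0.49 ± 0.17 (adjusted p = 0.404) and -0.27 ± 0.19 after IFNg. Xiap, the target of XAF1, differed by 0.59 ± 0.27 after IFNa (adjusted p = 0.428) and 0.55 ± 0.32 after IFNg. Birc2 and Birc3, further apoptosis inhibitor genes, differed by 0.59 ± 0.23 and -0.04 ± 0.20 after IFNa and by 0.65 ± 0.27 and 0.09 ± 0.24 after IFNg. Ifi44l, the named relative of Ifi44, differed by 0.02 ± 0.16 after IFNa and -0.14 ± 0.19 after IFNg. The helicase gene Skiv2l and the SAM domain gene Samd4b differed by -0.22 ± 0.13 and -0.45 ± 0.16 after IFNa, with adjusted p of 0.607 and 0.232. Some of these relatives were dim. The untreated mean log2 was 5.76 for Ifi44l, 6.46 for Rtp1 and 6.43 for Rtp3, beside 7.54 to 9.38 for the 7 genes. Whether such dim genes were detected at all was not tested.

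Antiviral genes of other families were listed with results of these data known. After IFNa 29 of 34 measured were called higher (median log2 2.80), after IFNg 18 of 34 (1.40), and in the direct comparison 15 of 34 were higher after IFNa (0.84), with none lower in any of the 3. The medians of the 7 genes were 2.43, 1.16 and 0.85. In the direct comparison these 34 genes ranged from 0.02 for Ifitm2, named after its value was seen, to 5.39 for Rsad2, the viperin gene, and the 7 genes from 0.62 for Ifi35 to 2.11 for Ddx60. The count of 18 was 6 without IFNg replicate 1 and 9 without IFNg replicate 2, and that of 15 was 9 without either.

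**Figure D5:**
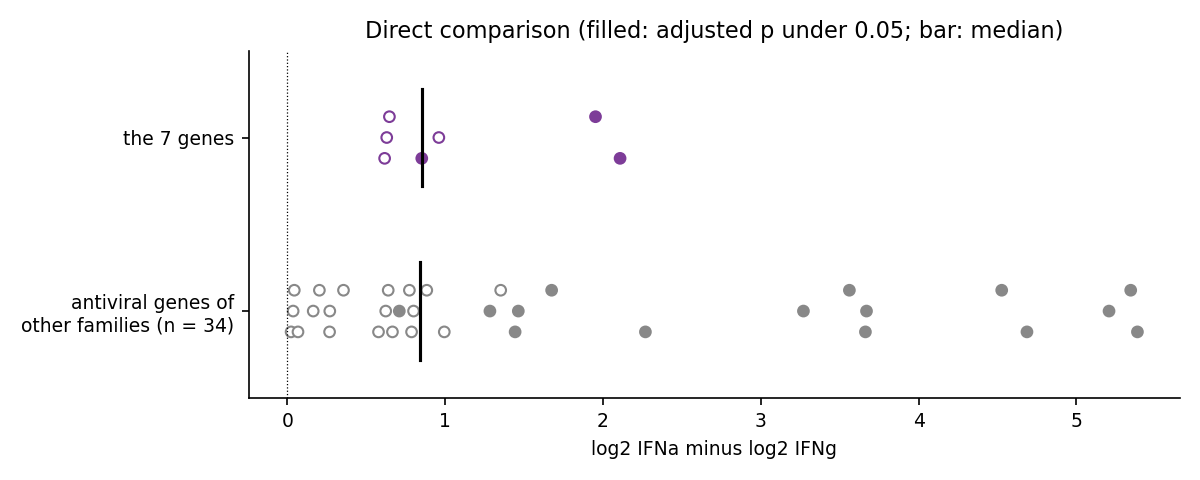
Log2 difference of IFNa minus IFNg (x axis) for the 7 genes (upper row) and 34 antiviral genes of other families (lower row). Filled points passed an adjusted p under 0.05, and black bars are medians. The 7 genes lie between 0.62 and 2.11, whereas the antiviral genes of other families reach 5.39.

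Among 13 measured genes of interferon receptors, kinases and transcription factors, Stat2, Irf7, Irf1 and Jak2 were called higher after IFNa, and Stat2, Irf1, Irf8 and Irf7 after IFNg. Stat2, a subunit of the complex that binds the ISRE, rose by log2 3.07 ± 0.15 after IFNa and 2.50 ± 0.18 after IFNg. Irf1 rose by 2.39 ± 0.21 after IFNa and 3.50 ± 0.26 after IFNg, a difference of -1.11 ± 0.24 between the 2 that did not pass (adjusted p = 0.0871). Irf8, a macrophage transcription factor gene, was the 1 gene of this list called in the direct comparison, lower after IFNa by 2.08 on the log2 scale (adjusted p = 5.06e-04), the opposite direction to the 7 genes. That count was 4 without the narrow arrays, 3 without untreated replicate 1 and 2 without untreated replicate 3.

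Markers of other cell types were measured on the same arrays. Of 6 measured markers of monocytes, small macrophages and dendritic cells Plac8 was called higher after IFNa (log2 1.00 ± 0.18, adjusted p = 0.0156). After IFNg its difference was 1.03 ± 0.21 and missed the threshold (adjusted p = 0.0537). Plac8 was the 1 marker of the 6 with a positive difference. Ccr2, Cd209a, Flt3, H2-Ab1 and Zbtb46 differed from untreated by -0.38 to -0.15 after IFNa and by -0.26 to -0.08 after IFNg. None of these was called. The 6 markers had summed intensities of 2316 to 2968 on IFNa arrays, 2834 to 2949 on IFNg arrays and 2874 to 3289 on untreated arrays. Of 4 markers of plasmacytoid dendritic cells Bst2 (0.97), itself interferon-stimulated, and Tcf4 (0.73) were called higher after IFNa, and their summed intensity was 2131 to 2353 on IFNa arrays, 1392 to 1427 on IFNg arrays and 1283 to 1499 on untreated arrays. Bst2 was also higher after IFNa in the direct comparison (0.71, adjusted p = 0.0446). Siglech and Ccr9, the remaining markers of this list, differed from untreated by -0.11 and -0.07 after IFNa. Their levels were low, with a mean log2 of 6.65 and 5.91 on IFNa arrays. None of the lymphocyte, mast cell, granulocyte or mesothelial markers was called in any of the 3 comparisons by limma. At an unadjusted p under 0.05 were 1 mast cell and 1 granulocyte marker after IFNa and 2 mast cell markers after IFNg. The summed intensity of 4 mast cell markers was 263 to 303 on IFNa arrays, 252 to 266.5 on IFNg arrays and 306 to 415 on untreated arrays, with every treated array below every untreated array. Cpa3, a mast cell protease gene, differed by -0.76 ± 0.26 (adjusted p = 0.237) for IFNa and -1.10 ± 0.31 (adjusted p = 0.222) for IFNg. Gata6, of the large macrophage list, was called lower after both interferons. It fell by 1.05 on the log2 scale after IFNa (limma, adjusted p = 0.00997) and by 1.16 after IFNg (adjusted p = 0.0242). Timd4, of the same list, was not called and differed in the other direction, by 0.25 after IFNa and 0.42 after IFNg. The part of these markers in the results above was not tested.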

How the data were processed

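Per the labels, RNA came from cells sorted into TriZol, and biotin-labelled target was hybridised to Affymetrix arrays. The deposited values are intensity per probe set on a linear scale, made by the authors with RMA (robust multi-array average) in Affymetrix Power Tools, per the submitters' processing notes, which give no version. Which arrays were normalized together is not given in the sources used here. Arrays give no counts, and their number limits the precision. Of 24922 probe sets 21425 carried exactly 1 symbol, 1399 several and 2098 none or were not listed. Log2 was taken, and each gene kept its probe set with the highest mean, which left 19752 genes, 19677 of them found by Entrez identifier in the reference used for names. No filter on low values was applied, and the untreated intensities of the 7 genes, 171 or higher, lay above the 5th percentile of every array (24.7 to 34.9).

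The limma package (3.58.1, R 4.3.3) fitted a mean for each of the 3 groups over the 9 arrays (6 residual and 3.62 prior degrees of freedom), so the 2 IFNg arrays shared the spread of the other groups. Tests were two-sided with Benjamini-Hochberg adjustment over all genes, and the threshold was 0.05. Errors after log2 differences are standard errors. On 1 simulated set for each comparison, with 200 changed genes of 19752, 68.5%, 51% and 51.5% of 2-fold changes were recovered for IFNa with untreated, IFNg with untreated and IFNa with IFNg, and 4 of 141, 8 of 110 and 2 of 105 calls were false. The simulated noise was normal, independent between genes and of equal spread on all arrays. It held no deviation shared by genes and no narrow array, so these shares need not hold for the measured arrays. Named genes were the members, up to 4 genes of smallest p in a list, all relatives and partners, and the genes of highest correlation (8 to the mean pattern, 2 to each member). Ifitm2 and the single cell type markers fall outside this rule and were chosen after their values were seen. The members and lists were chosen with earlier results of these data known. Figures and counts used Python 3.11.15, pandas 2.3.3, NumPy 2.4.6 and matplotlib 3.10.9.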

Additional observations from a re-analysis of the deposited data

Results flagged for a closer look

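Isg20 on IFNa replicate 4 stood apart from the other 3 IFNa arrays: its gap to the next array was 0.862 of the whole range of the group on the log2 scale, above Dixon's 95% critical value for 4 samples. Its intensity there was 3640.4, against 2063 to 2231 on the other 3 IFNa arrays. Chance alone flags about 1 in 20 groups, and the IFNa group was examined for 7 genes. Without this array Isg20 still passed against untreated (log2 2.23) and against IFNg (1.76, adjusted p = 0.0177).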

How the results depend on the processing

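No log2 difference of the 7 genes changed sign under the 12 other settings or with any of the 9 arrays left out. The number of genes called was 7 after IFNa, 4 after IFNg and 3 in the direct comparison. With 1 array left out these numbers were 6 to 7, 1 to 4 and 1 to 4. The IFNg number was 2 under median centring and 1 when the IFNa arrays were left out of the fit. Array weights called 7 after IFNg and 7 in the direct comparison, but the estimate of the weights stopped before it converged. Over all genes these weights called 3414 higher and 5930 lower after IFNa, 3854 and 6046 after IFNg, and 603 and 1037 in the direct comparison. Of all genes, 354 were called higher and 169 lower after IFNa, 245 and 22 after IFNg, and 87 and 106 in the direct comparison. Without the 2 narrow arrays these were 468 and 638, 358 and 145, and 250 and 292, and under quantile normalization 500 and 421, 276 and 80, and 160 and 116. With 1 array left out they were 261 to 444 and 27 to 255, 79 to 363 and 1 to 44, and 21 to 130 and 21 to 146.

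The labels do not say that equal replicate numbers mark shared mice or days, and the numbers in titles and descriptions disagree. The deviations of samples with the same title number correlated at -0.211 to 0.604, and 4 of 6 IFNa and untreated samples correlated best with their own number, a hint from the data only. A replicate block by title number called 7, 5 and 3 of the genes in the 3 comparisons, with 587 of all genes higher and 240 lower after IFNa, 589 and 110 after IFNg, and 87 and 132 in the direct comparison. Rtp4 was the gene added after IFNg (adjusted p = 0.0233). A replicate block by the number in the description called 7, 3 and 3, with Samd9l lost after IFNg, and 726 and 198, 232 and 25, and 80 and 56 of all genes. After IFNg, Rtp4 also passed without the dimmest 30% of genes (0.0422), under quantile normalization (0.0324) and with the interquartile range as a covariate (0.0268). The cause of these shifts was not tested.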
